A study of Mus musculus with 5 samples.

Results

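Chromosome 11 held 2191 of the 30398 RAP1 peaks in the deposited list, 7.21% of them, taken here as every listed peak on that chromosome. It was chosen by its number of peaks per Mb, the highest of any chromosome, so its density, its dense stretches and the block of peaks at its start are given as descriptions, with no test. The study immunoprecipitated RAP1-bound chromatin from 2 wild-type and 2 Rap1-deleted lines of mouse embryonic fibroblasts, and sequenced 1 input library without antibody beside them. All 5 libraries came, per the labels, from fibroblasts immortalised with SV40 large T antigen and grown with puromycin, and the 4 immunoprecipitates from cells of mixed background. SV40 large T blocks p53 and the retinoblastoma protein, so none of these cells is a normal fibroblast. Per the series' design, the cells without Rap1 serve as the negative control. The list gives reads of a positive and of a negative set, each pooled, read here as the wild-type and the Rap1-deleted immunoprecipitates, while the column headers say only positive and negative. No value belongs to a single library, so none of the values has a spread between replicates, and no difference between regions was tested. Control reads are negative reads counted for either strand of a peak, in what are called strand windows here, and a ratio of reads has the negative reads multiplied by 3.32, a scale solved from the deposited folds.

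RAP1 is a subunit of shelterin, the complex that coats telomeres, and it reaches the TTAGGG repeats through its partner TRF2. It is also known to sit at sites inside chromosomes, away from telomeres. Mouse chromosomes are telocentric: the proximal end of the assembled sequence abuts the centromere and its satellite repeats, and the distal end carries the long-arm telomere. Chromosome 11 is a gene-rich chromosome that carries, among others, Trp53, the Hoxb cluster with Hoxb4, and the collagen gene Col1a1. Positions are those of the deposited list, on mm9 per the submitters' processing notes. No peak was assigned to a gene, and no sequence is shown, because the sequence and annotation of mm9 were not used here.

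Peaks covered the whole chromosome from 3001829 to 121843788, at 18.4 per Mb, against 12.1 per Mb over the other 18 autosomes combined. The ratio of these densities was 1.52 (95% interval 1.45 to 1.59, counting error only). The next densest chromosome was 19, at 17.5 per Mb, followed by 15 at 15.9 per Mb. The surplus was not made by the crowded places alone. The median 1 Mb bin of chromosome 11 held 17 peaks, which was also the highest median of the 20 chromosomes, against 16 on chromosome 19, 14 on chromosome 15 and a median of 11 over the 20. Without the 77 peaks before position 3200000, the density was 17.8 per Mb and still the highest. Without those peaks and without the stretch near 86 Mb and the 50-peak bin distal of it, 1893 peaks remained at 16.8 per Mb, a density second to that of chromosome 19.

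**Figure D1:**
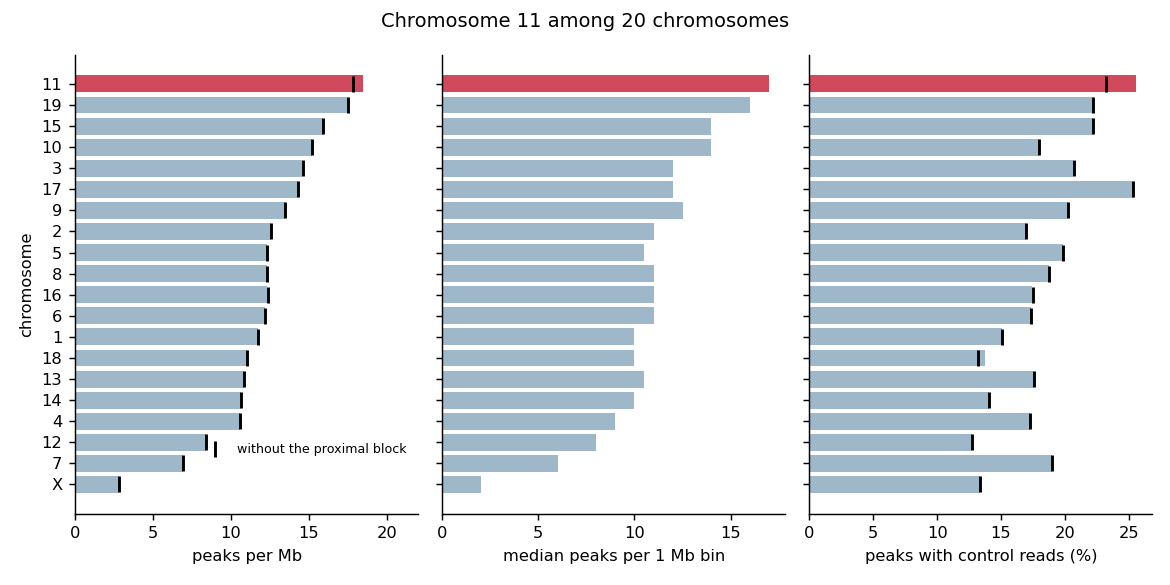
Peaks per Mb, median peaks per 1 Mb bin, and percent of peaks with control reads in the strand windows, for 20 chromosomes ordered by density from the top; black ticks give the value without the peaks before 3200000. Chromosome 11 (red) leads in density at 18.4 per Mb, or 17.8 per Mb without those peaks, and in the median bin at 17 peaks, and its share with control reads is 25.6%, or 23.2% without them.

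The median peak of chromosome 11 was near that of the other autosomes in length and height, while its mean of 31.5 positive reads per peak was the highest of the 20 chromosomes, and second, at 30.9, without the peaks before 3200000. The median peak was 57 bp long and held 28 positive reads (quartiles 24 and 36, lowest 13, highest 130), against 56 bp and 28 positive reads on the other autosomes. In 2014 peaks (91.9%) reverse-strand reads piled up downstream of forward-strand reads, the order that reads from both ends of a bound fragment give. On the other autosomes this share was 93.0%. At the best-ranked peak the distance between the 2 strands' pile-ups was 69 bp, equal to its listed length, as at many of the named peaks. The strand order is thus tied to the listed bounds and is no independent sign of binding. Peaks of only 29 to 31 bp made up 19.4% of the chromosome (17.7 to 21.1%), against 17.6% of the other autosomes (17.1 to 18.0%).

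Along the chromosome the peaks were uneven. After a crowded run of bins at 3 to 5 Mb came a sparser proximal part, and the distal part was crowded. The 119 bins of 1 Mb held from 1 to 108 peaks, with an interquartile range of 9 to 25.5. Distal of the midpoint at 62422808 lay 1308 peaks (59.7%), against 883 proximal of it, or 806 without the peaks before 3200000. In successive 20 Mb segments, without those peaks, the mean bin held 13.2 peaks in the bins at 3 to 22 Mb and 10.6 at 23 to 42 Mb. It held 17.0 peaks at 43 to 62 Mb and 19.7 at 63 to 82 Mb. The crest came at 83 to 102 Mb, with 24.2 peaks per bin, and the last bins from 103 to 121 Mb had 22.1. The variance of the bin counts was 10.1 times their mean, and 6.70 times without the peaks before 3200000.

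**Figure D2:**
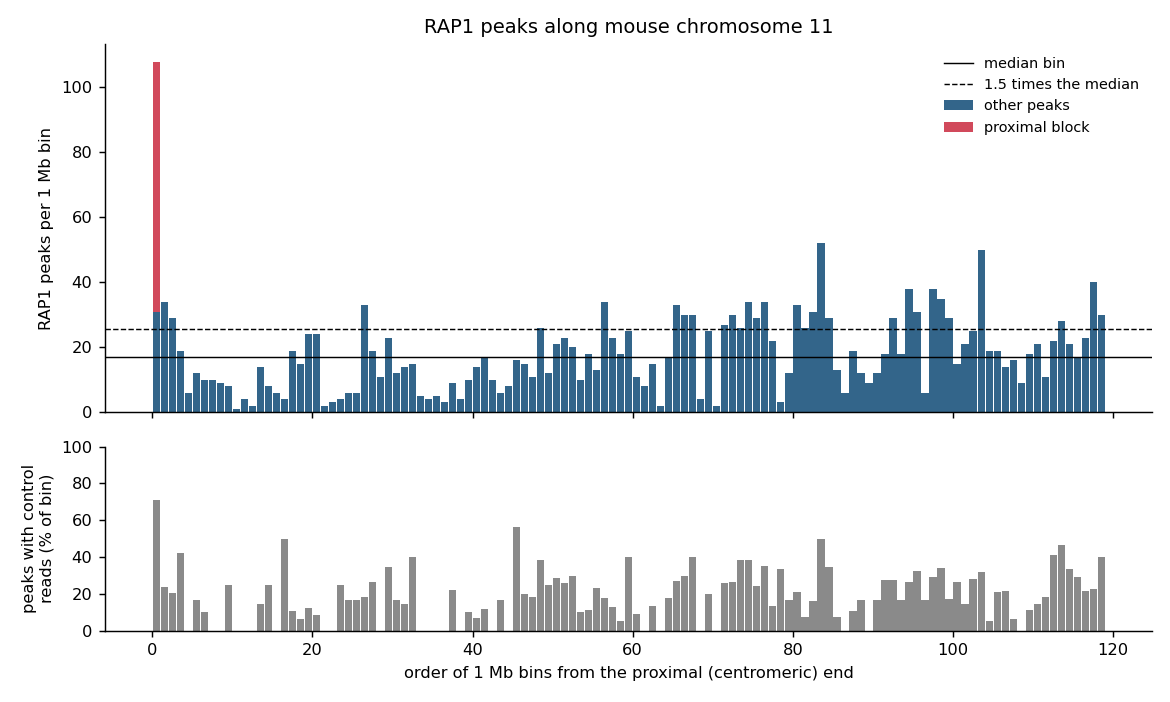
Top: RAP1 peaks in each 1 Mb bin of chromosome 11 in order from the proximal end, with the 77 peaks before 3200000 in red, the median bin of 17 peaks as a solid line and 1.5 times that as a dashed line. Bottom: percent of each bin's peaks that have control reads in the strand windows. The first bin holds 108 peaks, 31 of them past the block, and the next tallest bins hold 52 and 50.

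Long stretches held few peaks. A total of 27 bins had at most 8.5 peaks, 0.5 times the median bin, and together they held 126 peaks (5.75%). The longest such runs were 5 bins from 24 to 28 Mb with 21 peaks, 4 bins from 12 to 15 Mb with 15 peaks, and 4 bins from 36 to 39 Mb with 17 peaks. The bin at 13 Mb held a single peak. The widest gap between neighbouring peaks, 948 kb, ran from 38501259 to 39449409. In these sparse bins 12 of 126 peaks (9.52%, 5.02 to 16.0%) had control reads, where 18.8% of all listed peaks do. Of the 126, 1 held 50 or more positive reads (0.794%, 0.0201 to 4.34%), where 4.23% of all listed peaks do. The strand ratio of the sparse bins, the scaled ratio of positive to negative strand-window reads, was 15.9 (12.4 to 20.6).

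Dense bins, those with 1.5 times the median or more, numbered 30 of 119 (25.2%) and held 1056 peaks (48.2%). Such bins were not more frequent here than elsewhere: chromosome 11 stood 15th of 20 in the share of bins that passed 1.5 times the chromosome's own median. Of the 30, 24 lay at 62 Mb or beyond. They fell into 13 runs, the longest being 6 bins from 74 to 79 Mb with 180 peaks.

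The stretch near 86 Mb was a run of 5 dense bins, from 83 to 87 Mb, with 33, 26, 31, 52 and 29 peaks. Its 171 peaks gave 34.2 per Mb, 2.01 times the median bin (1.72 to 2.34). The bin at 84 Mb is within 1 peak of the limit for a dense bin. The bin at 86 Mb alone held 52 peaks, 3.06 times the median, the highest count after the first bin. Within it the peaks crowded between 86300000 and 86599999, in which the 3 consecutive windows of 100 kb held 15, 7 and 10 peaks, and 11, 4 and 5 of these had control reads. In that bin 7 of 52 peaks held 50 or more positive reads (13.5%, 5.59 to 25.8%), where 4.23% of all listed peaks do.

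Control reads were frequent in the bin at 86 Mb and less so around it. In that bin 26 of 52 peaks (50%, 35.8 to 64.2%) had negative reads in the strand windows, where 18.8% of all listed peaks do. Over the 5 bins, this bin included, 50 of 171 peaks did (29.2%, 22.5 to 36.7%). The shares at 83, 84, 85 and 87 Mb were 21.2%, 7.69%, 16.1% and 34.5%. Strand windows of the bin at 86 Mb held 1832 positive and 217 negative reads. Their ratio of positive to scaled negative reads was 2.54 (2.21 to 2.94), against 3.64 (3.31 to 4.01) over the 5 bins. At 83, 84, 85 and 87 Mb the ratios were 3.27, 16.4, 8.21 and 2.87. The best-ranked peak there, from 86396062 to 86396090, is 29 bp long and ranks 24th in the whole list. It had 113 positive and 0 negative reads over the peak, but 108 positive and 20 negative reads in the strand windows, a ratio of 1.63 (1.003 to 2.77). The second, from 86571197 to 86571227, had 61 positive reads and a strand ratio of 1.84 (0.866 to 4.51) from 8 negative reads. The next best-ranked pair, from 85320087 to 85320160 and from 85180708 to 85180767, had no negative read, with 47 and 65 positive reads. Both lie outside the most crowded bin.

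The other stretch singled out for its density was a single bin, from 106006301 to 106956656, with 50 peaks, 2.94 times the median (2.18 to 3.88), between neighbours of 25 and 19. Its peaks were spread over the whole bin, with 8 in its first 100 kb, 10 in the window from 106300000 and 7 in the window from 106600000. Here 16 of 50 peaks (32.0%, 19.5 to 46.7%) had control reads, and 1649 positive against 130 negative strand-window reads gave a ratio of 3.82 (3.19 to 4.60). Of its peaks 5 held 50 or more positive reads. The best-ranked, from 106815985 to 106816057, had 61 positive reads and no negative read in any column. Set against a floor of 3 negative reads, which stands for a count of 0, wild-type reads were at least 6.12-fold higher. The next, from 106640995 to 106641224, had 86 positive and 2 negative reads over the peak and a strand ratio of 4.998 (2.06 to 15.8). Another, from 106364223 to 106364283, had 76 positive reads and a strand ratio of 5.72 (2.15 to 21.5) from 4 negative reads. The last of the 4 best-ranked, from 106024600 to 106024669, had 40 positive and 10 negative strand-window reads, a ratio of 1.20 (0.592 to 2.70).

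Across the 118 bins after the first, bins with more peaks also had a larger share of peaks with control reads (Spearman's rho 0.63, Pearson's r 0.59) and more positive reads per peak (rho 0.45, r 0.40). Over the 87 of these bins with at least 10 peaks the rho values were 0.54 and 0.33. These are descriptions across places that share the same pooled libraries. Past the proximal block, peaks in dense bins had control reads in 287 of 979 cases (29.3%, 26.5 to 32.3%), against 204 of 1135 in the other bins (18.0%, 15.8 to 20.3%). The summed strand ratios were 3.76 (3.61 to 3.92) in dense bins and 5.52 (5.27 to 5.79) in the others. The part that peak height plays in this was not tested.

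**Figure D3:**
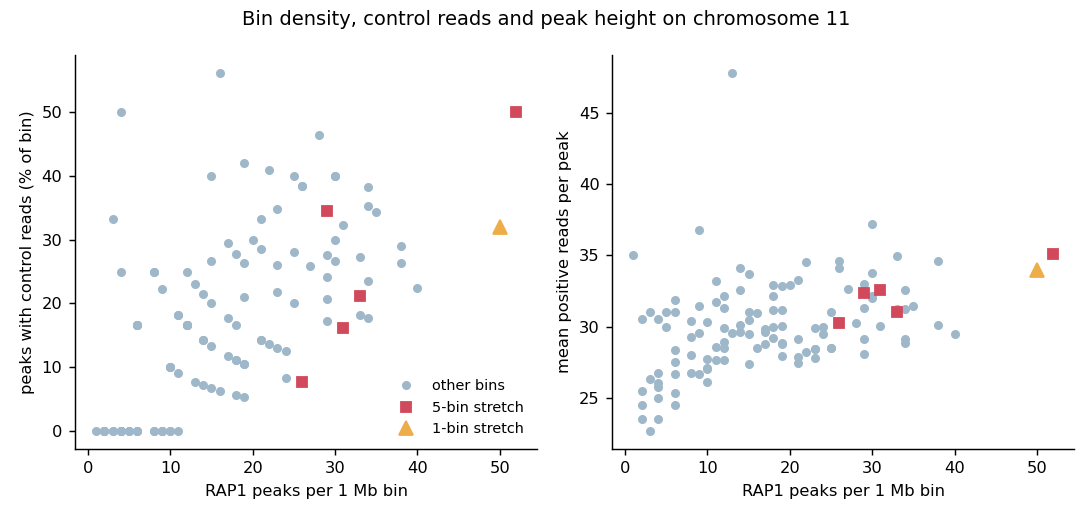
Each point is a 1 Mb bin of chromosome 11 after the first, placed by its number of RAP1 peaks and by the percent of its peaks with control reads (left) or the mean positive reads per peak (right); red squares are the 5 bins near 86 Mb and the yellow triangle the 50-peak bin. Bins with more peaks tend to lie higher in both panels (rho 0.63 and 0.45 over 118 bins), and the bin with 52 peaks has control reads at 50% of them.

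The proximal end was the most crowded place on the chromosome. Before position 3200000 lay 77 peaks, more than the other chromosomes held there: chromosome 18 followed with 7, and the median chromosome had 0.5. Most stood close together: joined at 10 kb or less, 72 of them formed a single group from 3025355 to 3100104. The limit falls in a gap of the list. The last peak before it, from 3160738 to 3160768, had 27 positive and 5 negative strand-window reads. The first after it, from 3214039 to 3214081, had 33 positive and 28 negative strand-window reads, a ratio of 0.355 (0.208 to 0.610), so reads of both sets also met just past the limit.

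These 77 peaks were taller and shorter in length than the rest. Their median was 49 positive reads (interquartile range 30 to 61), against 28 (24 to 35) over the 2114 other peaks of the chromosome. Of the 77, 36 held 50 or more positive reads (46.8%, 35.3 to 58.5%), where 4.23% of all listed peaks do. The median length of the 77 was 38 bp, against 57 bp for the other peaks of the chromosome. Of the 77, 42.9% (31.6 to 54.6%) were 29 to 31 bp long, against 18.5% (16.9 to 20.2%). In the deposited ranking, 11 of the 19 chromosome 11 peaks among the best-ranked 100 came from this block, as did 32 of the 112 among the best-ranked 1000.

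Nearly all of them had control reads. Negative strand-window reads stood at 69 of 77 (89.6%, 80.6 to 95.4%), where 18.8% of all listed peaks have such reads. Summed over the block, 3884 positive and 1002 negative reads gave a scaled ratio of 1.17 (1.09 to 1.25). A ratio of 1 or less was found for 29 of the 69 (42.0%). Over all listed peaks with control reads this share was 35.1%, so the block stood apart more in how many peaks had control reads. The block's peaks with 50 or more positive reads had a ratio of 1.54 (1.40 to 1.71), and those under 50 a ratio of 0.848 (0.769 to 0.937). Strand windows can reach beyond a peak, by up to 350 bp on this chromosome as judged from the highest negative window. In the block 40 neighbouring pairs were within 700 bp of each other, of 108 such pairs on the whole chromosome. Reads may thus count for more than 1 peak, there and at close pairs elsewhere.

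Single peaks in the block differed widely. The best-ranked, from 3057471 to 3057555, had 92 positive reads and a strand ratio of 6.78 (2.56 to 25.4) from 90 positive and 4 negative reads. From 3054822 to 3054890, 85 against 2 strand-window reads gave 12.8 (3.44 to 107). Ratios in between were 1.93 (0.983 to 4.21) at 3083752 to 3083810, with 64 against 10 strand-window reads, and 2.08 (1.13 to 4.19) at 3091929 to 3092050, with 83 against 12. The first listed peak, from 3001829 to 3001857, had 59 against 4 reads and a ratio of 4.44 (1.65 to 16.8). By contrast the peak from 3076616 to 3076996, ranked sixth on the chromosome, had 87 against 25 reads and a ratio of 1.05 (0.665 to 1.71). The tallest peak of the chromosome, from 3053843 to 3053964, had 130 positive reads over the peak and 113 against 19 in the strand windows, a ratio of 1.79 (1.10 to 3.08). The 3 peaks with the most negative strand-window reads on the chromosome also lie here. They had 45, 39 and 38 negative reads and ratios of 0.341 (0.224 to 0.521), 0.293 (0.183 to 0.471) and 0.634 (0.426 to 0.959), with intervals wholly under 1. The last of them, from 3042324 to 3042425, nevertheless had 0 negative reads in the whole-peak column and ranked 84th in the list.

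Past the block, the proximal end was still denser than the chromosome at large, though by much less. The first 2 Mb held 142 peaks where an even density gives 36.9, a ratio of 3.85 (3.24 to 4.54). Started anew at the first peak from 3200000 on, the 2 Mb held 69 peaks against 35.6, a ratio of 1.94 (1.51 to 2.45). In that window 17 of 69 peaks (24.6%, 15.1 to 36.5%) had control reads, where 18.8% of all listed peaks do. For all chromosome 11 peaks from 3200000 on the share was 23.2% and the strand ratio 4.51 (4.37 to 4.65). The strand ratio of the window was near that, at 4.78 (4.01 to 5.73). Its 3 best-ranked peaks, from 3686796, 3733394 and 3808826, had 51, 51 and 44 positive reads. The first and the last of these had no negative read, and the middle one had 11 in the strand windows.

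The distal end, which abuts the long-arm telomere, was also denser than an even density, which averages in the sparser proximal part. The last 2 Mb held 76 peaks against 36.9 for an even density, a ratio of 2.06 (1.62 to 2.58). The last 1 Mb held 36 peaks (1.95, 1.37 to 2.70), the last 0.5 Mb 20 (2.17, 1.33 to 3.35) and the last 0.1 Mb 8 (4.34, 1.87 to 8.55), while the last 5 Mb gave 1.51 (1.27 to 1.78). With only the peaks that have no negative read in any column, the ratio in the last 2 Mb was 1.97 (1.48 to 2.57). With all peaks, the ratio of 2.06 in the last 2 Mb was the fourth-highest of the 20 chromosomes. In the last 2 Mb 22 of 76 peaks (28.9%, 19.1 to 40.5%) had control reads, where 18.8% of all listed peaks do. The strand ratio was 3.94 (3.40 to 4.60), against 5.94 on the other autosomes. The share of peaks with control reads at the distal end was thus under the 89.6% of the proximal block and above that of the list. Its interval held the 23.2% of all chromosome 11 peaks past the block. In the bins from 103 to 121 Mb, which include this end, the share was 25.3% and the strand ratio 3.97. Control reads at the distal end were thus near those of the distal part of the chromosome at large.

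**Figure D4:**
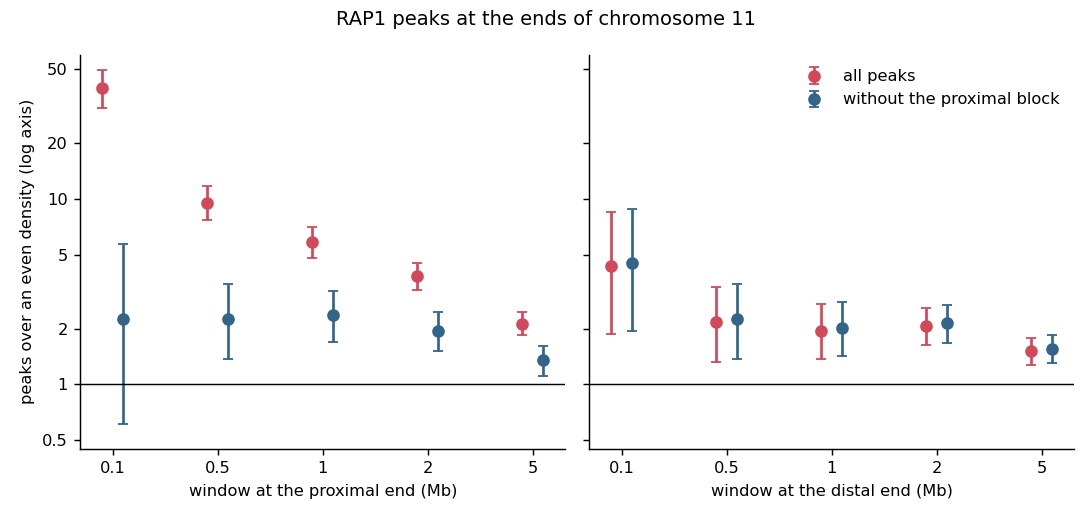
Number of RAP1 peaks in windows at the proximal (left) and distal (right) end of chromosome 11 over the number an even density along the chromosome gives, on a log axis, with exact Poisson 95% intervals; red points use all peaks and blue points leave out the 77 peaks before 3200000. At the proximal end the 2 Mb ratio is 3.85 with those peaks and 1.94 without them, and at the distal end it is 2.06 and 2.13.

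The last listed peak, from 121843526 to 121843788, was the second-best ranked of the chromosome and 11th of the list. It is 263 bp long, with 109 positive reads and no negative read in any column, at least 10.2-fold higher by its 102 strand-window reads. Its neighbour from 121843251 to 121843358 ends 0.430 kb before the end of the last peak. That neighbour had 86 positive and 0 negative reads over the peak, and 89 against 17 in the strand windows, a ratio of 1.58 (0.931 to 2.83). Adjacent peaks at the very end of the list thus differed in their control reads. The third of the best-ranked distal peaks, from 120353073 to 120353104, had 49 positive reads and no negative read.

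Strong peaks, those with 50 or more positive reads, numbered 134 on the chromosome (6.12%, 5.15 to 7.20%), where 4.23% of all listed peaks are that tall. This was the highest share of the 20 chromosomes, but 36 of the 134 lay before 3200000. Without the block, 98 of 2114 were strong (4.64%, 3.78 to 5.62%), the fifth-highest share of the 20 chromosomes, against 4.10% (3.87 to 4.34%) on the other autosomes. Those 98 were scattered over 50 bins.

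Outside the block 4 peaks held 100 or more positive reads. The best-ranked peak of the chromosome, from 51269148 to 51269216, had 127 positive and 1 negative read in the strand windows, a ratio of 38.2 with an interval from 6.74 to 1522 because it rests on a single control read. Of the others, 2 are the last listed peak and the 29 bp peak at 86 Mb described above. The remaining one, from 58148068 to 58148529, is 462 bp long, with 108 positive reads and a strand ratio of 3.16 (1.65 to 6.79). It belongs to a bin at 58 Mb, singled out after its values were seen, where 5 of only 13 peaks were strong. The third best-ranked peak of the chromosome, from 53954003 to 53954066, had 92 positive and 4 negative reads over the peak, and a strand ratio of 3.95 (1.93 to 9.39).

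Strong peaks had control reads more often than weaker ones. From 3200000 on, 48 of 98 strong peaks did (49.0%, 38.7 to 59.3%), against 443 of 2016 weaker peaks (21.97%, 20.2 to 23.8%). The same order was seen on the other autosomes, at 39.8% (36.9 to 42.7%) and 17.4% (17.0 to 17.9%). Strong peaks of chromosome 11 from 3200000 on were also longer, with a median of 84.5 bp against 56 bp for the weaker ones. The part that length plays in their control reads was not tested. The summed strand ratio was 4.19 (3.79 to 4.64) for the strong and 4.54 (4.40 to 4.69) for the weaker peaks of the chromosome. For the 50 strong peaks without negative strand-window reads, the bound ran from at least 4.01-fold to at least 10.2-fold. Such a bound is the positive reads of a peak over a fixed floor, so it restates the peak's height.

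Over the whole chromosome 560 of 2191 peaks had negative reads in the strand windows (25.6%, 23.7 to 27.4%), the largest share of the 20 chromosomes, against 18.3% (17.9 to 18.8%) on the other autosomes. Without the block the share was 23.2% (21.4 to 25.1%), second to the 25.3% of chromosome 17. The summed strand ratio of 3.88 (3.77 to 3.99) was the lowest of the 20 chromosomes, against 5.94 (5.88 to 6.0) on the other autosomes. Without the block it was 4.51, and only chromosome 17 was lower, at 3.92. Chromosome 19, the closest in density, stood at 4.90 (4.68 to 5.13), and chromosome 15 at 4.69 (4.52 to 4.86).

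Among the 560 peaks, 165 (29.5%) had a strand ratio of 2 or more, where 33.1% of all listed peaks with control reads do. A ratio of 1 or less was found for 215 (38.4%), beside 35.1% over the list. Past the block the numbers were 148 and 186 of 491. Both shares are near those of the list, so the chromosome differed more in how many peaks had control reads than in the ratio at those peaks, whose median was 1.26 here and 1.35 on the other autosomes. The other 1631 peaks had no negative strand-window read, and 1 of these had a negative read in the whole-peak column.

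**Figure D5:**
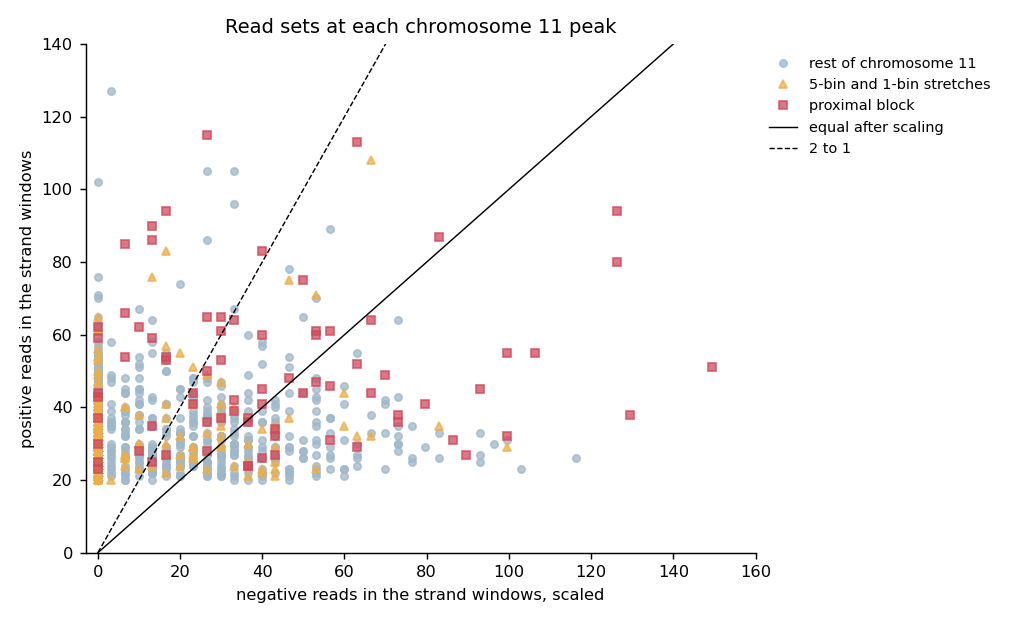
Each point is a chromosome 11 peak, placed by its scaled negative reads (horizontal) and positive reads (vertical) in the strand windows; red squares are the 77 peaks before 3200000, yellow triangles the stretch near 86 Mb and the 50-peak bin, and the lines mark equal reads and a ratio of 2. Peaks of the block spread to the right, while 1631 peaks of the chromosome sit at 0 negative reads. Of the block's 69 peaks with control reads, 29 lie on or under the line of equality (42.0%, against 35.1% over the list).

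Control reads past the block mostly lay on a single strand. Of the 491 peaks with such reads there, 414 (84.3%, 80.8 to 87.4%) had them on the forward or the reverse strand only, against 89.8% (88.97 to 90.7%) on the other autosomes. In the block this was 30 of 69 (43.5%, 31.6 to 56.0%), and the other 39 peaks had negative reads on both strands. The median number of negative strand-window reads was 12 in the block, 8 past it and 7 on the other autosomes. The whole-peak column showed 0 negative reads for 541 of the 560 peaks, so that column cannot be read as an absence of control reads. Of the 676 strand entries with negative reads, 375 (55.5%) had their highest negative window within the peak bounds.

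Neighbouring peaks were a median of 25.1 kb apart, and 27.1 kb from 3200000 on, against 39.5 kb on the other autosomes. Of 2190 pairs, 604 (27.6%) were under 10 kb apart, or 25.2% from 3200000 on, against 19.8% on the other autosomes. A higher density shortens gaps by itself, so these values do not separate clustering from density. When peaks 10 kb apart or less were joined, they formed 17 groups of 5 or more, of 113 such groups in the list.

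After the proximal group of 72, the largest group lay from 86384389 to 86407280, with 12 peaks over 22.9 kb, 9 of them with control reads and 3 strong. Its strand ratio was 2.21 (1.73 to 2.86). A group of 7 peaks from 102975927 to 102994917 had a ratio of 6.56 (3.50 to 13.9), with control reads at only 1 peak. Another 7 peaks from 70446478 to 70471815 gave 2.13 (1.48 to 3.14). Of 6 peaks each there were 4 groups, tied for the last places among the largest. The 6 peaks from 106360752 to 106364283 were packed into 3.53 kb, held 2 strong peaks and gave 3.87 (2.45 to 6.44). The 6 peaks from 77794830 to 77803302 gave 1.74 (1.23 to 2.53), those from 97007769 to 97020994 gave 3.33 (1.93 to 6.24), and those from 80200914 to 80222727 gave 9.28 (4.19 to 25.6). At 114529906 to 114536549, a group of 5 peaks named after its values were seen had 199 positive and no negative strand-window reads, with 35 to 53 positive reads over each peak.

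The broad proximal-to-distal difference in density also came with a difference in control reads. From 3200000 on, the peaks at 3 to 22 Mb had a strand ratio of 7.13 (6.39 to 7.99) and those at 23 to 42 Mb 5.99 (5.35 to 6.74). At 43 to 62 Mb it was 4.46 (4.14 to 4.82), at 63 to 82 Mb 3.80 (3.56 to 4.06), at 83 to 102 Mb 4.42 (4.15 to 4.71) and at 103 to 121 Mb 3.97 (3.72 to 4.24). The share of peaks with control reads was 17.7% and 17.5% in the first 2 segments, 22.1% in the next and 25.2 to 26.4% in the last 3. Low ratios also occurred in bins that are not dense. The bin at 48 Mb, singled out after its values were seen, held 16 peaks, 9 with control reads, at 1.25 (1.01 to 1.55), and the bin at 115 Mb, beside the dense bin at 116 Mb, held 22 peaks, 9 with control reads, at 1.56 (1.30 to 1.88).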

How the data were processed

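The series has 5 libraries; the analysis starts from its single peak list. Per the file headers, the deposited list gives, for each peak, the count of reads of each set, positive or negative, in the peak and in strand windows, a log2 fold, and a false discovery rate (q-value) of the peak caller. Per the submitters' processing notes the build is mm9; aligner, caller, filters and read totals are not given in the sources used here, and library depth is therefore unknown. The scale of 3.32 between read sets was solved from the deposited log2 folds of single strands, and 140 of 141 solvable entries returned it within 0.001. Peaks were assigned to 1 Mb bins by their start, and a dense stretch is a run of bins at 1.5 times the median or more. Ratios have exact conditional binomial, shares exact Clopper-Pearson and bin or window counts exact Poisson 95% intervals, which cover counting error only and treat peaks and reads as independent; PCR copies are not. A count of 0 negative strand-window reads was bounded by a floor of 3 negative reads, equal to 9.96 positive reads. The planned comparisons between libraries were not run, since the columns hold no single library. Named peaks are the 12 best-ranked, the 4 best-ranked of each stretch, the 3 best-ranked of each end (for the proximal end before and from 3200000), the 3 with most negative reads, the first and last, those beside 3200000, and the 6 largest groups, with ties; others are marked as chosen after their values were seen. The members, stretches and limits were chosen with earlier results of these data known. The steps were tested on simulated data. Python 3.11.15, pandas 2.3.3, numpy 2.4.6, scipy 1.17.1 and matplotlib 3.10.9 were used.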

Additional observations from a re-analysis of the deposited data

Results flagged for a closer look

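A deposited log2 fold of a single strand was below 0 at 27 of the 2191 chromosome 11 peaks. Its columns were used above only to solve the scale between read sets. The fold is the most extreme one on that strand and belongs to a single position. A value below 0 stands where, after scaling, the negative set outnumbered the positive set at that position, not necessarily over the whole strand window. Of these 27, 12 lay before 3200000, and the lowest value was -2.81. The whole list has 135 such peaks among 30398. Signal in columns not otherwise analysed raised this result, and its cause was not tested.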

How the results depend on the processing

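Of 51 alternative values for 9 results, 26 stayed within the interval of the value reported (or, for dense bins, within 1.5 times). The other 25 moved, and no ratio crossed 1. Both stretches were sought anew in each setting as runs of bins at 1.5 times the median or more. Their width could thus change, and their ratios could not cross 1. The peaks were listed for an excess of positive reads, and the chromosome was chosen for its density. That the strand and density ratios stayed above 1 is therefore no support. Without the peaks before 3200000, the proximal 2 Mb ratio was 1.94, the strong share 4.64%, the control share 23.2% and the strand ratio 4.51. With a false discovery rate of at most 0.01, the run of dense bins then found near 86 Mb was 2.63 times the median. The proximal ratio was 5.07, the strong share 9.79%, the control share 28.9% and the strand ratio 3.76. With the better-ranked 50% of the list these were 2.48, 5.03, 10.9%, 29.9% and 3.68. Among peaks with no negative read, the density ratio to other autosomes was 1.38, the proximal ratio 2.04 and the strong share 3.13%. Merging within 1 kb gave a proximal ratio of 2.53. Bin edges moved by 0.5 Mb gave 2.56 for the run of dense bins then found near 86 Mb. A limit of 2 times the median left 11 dense bins of 30. The proximal ratio was 5.86 in 1 Mb and 2.13 in 5 Mb, and the distal ratio 1.51 in 5 Mb. A minimum of 40 reads made 16.6% strong, and unscaled negative reads gave a strand ratio of 12.9. By construction, the limits on false discovery rate, rank, negative reads and position use fewer peaks, and the other settings change a bin, window, threshold, join or scale; further causes were not tested. No paired analysis was possible because the columns pool the libraries, and no replicate could be left out. Depth limits single peaks: most ratios rest on few negative reads.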
